A study of Mus musculus with 6 samples.

Results

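CD8 effector T cells of CT26 tumors were taken as the cells that the authors labelled T cell EFF and that carried at least 1 UMI (unique molecular identifier, 1 counted transcript) of Cd8a or Cd8b1 and 0 UMIs of Cd4 and of Foxp3. Of 33961 cells in the table, 3048 (8.98%, 95% exact binomial interval 8.67 to 9.28, counting error only) met this rule. They made up 83.9% of the 3633 cells with the label. Of the remaining labelled cells, 269 had no Cd8a or Cd8b1 UMI, 145 had a Cd4 UMI as well, 69 had a Foxp3 UMI as well and 102 had UMIs of all 3 kinds. The members were thus chosen by measured values, the UMIs of these 4 genes and, through the label, the whole profile of each cell, so the levels of the 4 genes in the selected cells are a description of the choice and not a result.

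The study examined a bispecific antibody that joins an anti-PD-1 arm to the ligand of GITR (GITR-L). Tumors grown under the skin of young wild-type Balb/c females from CT26, a mouse colon carcinoma line, were collected 5 days after treatment according to the methods, and their leukocytes were enriched with CD45 beads before droplet-based single-cell mRNA-seq. The sample labels name 6 samples of tumor-infiltrating cells, 2 given vehicle, 2 given the bispecific at a low dose and 2 given it at a high dose of 30 mg/kg. The low dose is written as 10 mg/kg in the treatment protocol and as 30 mg/kg in the treatment field of the same samples, and the text of the paper names another high dose and an isotype control in place of vehicle. The deposited table holds 4 libraries, named M1, M2, M5 and M6, and these names match none of the sample labels. Which library came from which treatment was therefore not assigned, no treatment was compared with another, and each library is reported on its own. No test was run, because cells of a library are not replicates and the libraries could not be placed in groups.

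CD8 effector T cells kill target cells by releasing granules that hold perforin, which opens the target membrane, and granzymes, the proteases that enter through it. In tumors, repeated stimulation through the T cell receptor leads such cells to carry PD-1 (Pdcd1) and other inhibitory receptors, and a small reservoir of progenitor cells marked by the transcription factor TCF-1 (Tcf7) and the surface receptor Slamf6 is known to replenish them. GITR (Tnfrsf18) is a costimulatory receptor of the TNF receptor family that activated T cells and regulatory T cells carry.

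M1 held 705 of the CD8 effector T cells (6.85% of its 10294 cells), M2 held 821 (9.18% of 8940), M5 held 889 (12.4% of 7160) and M6 held 633 (8.37% of 7567). These are shares of all cells. Cells labelled Stroma made up 61.2% of M1, 57.1% of M2, 27.2% of M5 and 30.9% of M6. M5, with the largest share of members, had the smallest Stroma share, and M1 the reverse. M2 had a larger share of members than M6 in spite of its larger Stroma share. The Stroma-labelled cells numbered 6300, 5103, 1946 and 2338 in M1, M2, M5 and M6. Among the cells without that label the order of the libraries was another, and M5 was not highest. Shares without the Stroma-labelled cells are not given. The share of cells with the authors' label that also met the Cd8, Cd4 and Foxp3 rule was 87.8% in M1 and 92.4% in M2, and 79.4% in M5 and 77.0% in M6. Median depths were 10162 UMIs in the members of M1, 9031 in those of M2, 10532 in those of M5 and 9459 in those of M6, with a range of 1302 to 134426 over all members and 40826679 UMIs in all. Of the 3048 members, 3037 had a UMI of a CD3 chain. A level is given below in CPM, the UMIs of a gene per 1000000 UMIs of the cells summed. A share of cells with a UMI is given after each cell was thinned at random to 2000 UMIs, which left out 66 shallower members and kept 2982.

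At the edge of the rule, 68 members carried a single Cd8 UMI, with a Cd8a level of 116 CPM and a median depth of 2651 UMIs. Just outside it, 78 labelled cells were left out by exactly 1 Cd4 UMI, with a Cd8a level of 484 CPM and a median depth of 16434 UMIs, and 33 by exactly 1 Foxp3 UMI.

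Transcripts of other cell types were present among the members, and their part in the results was not tested. A list of 8 myeloid markers summed to 409 CPM (519 in M1 and 354 in M2, and 389 in M5 and 370 in M6), and 57.2% of members carried a UMI of it. A list of 5 stroma or tumor markers summed to 179 CPM (297, 173, 57 and 220 in the same order), and 27.9% of members carried one. The B cell list summed to 1.37 CPM. Of the dendritic cell list, 40.2% of members carried a UMI, and the list's level was nearly all Ccr7 at 353 CPM, a gene that T cells also use, while Xcr1 (0.588 CPM), Clec9a (0.514 CPM) and Flt3 (0.490 CPM) were each below 1 CPM. The 209 members over 30000 UMIs, 6.86% of members, held 26.3% of all their UMIs. In these deep cells the stroma or tumor list was at 555 CPM against 44.5 CPM in the other members, and the list of T cell receptor and CD8 genes was at 4716 against 11079 CPM. Some levels moved when the deep cells were left out, and values without them are given below for some of the genes that moved and not for all. In addition, 111 cell barcodes occurred in more than 1 library, and 14 members carried such a barcode.

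Gzmb and its neighbours Gzmc, Gzmd, Gzme, Gzmf and Gzmg, the granzymes described below, lie on the minus strand of chromosome 14 between 56117626 and 56262260 (GRCm38, GENCODE M21), a span of 145 kb, with Gzmb at 56258838 to 56262260 and Gzmf at 56205263 to 56211417. Their promoters are shown so that the sequences of the co-detected genes can be set beside that of Gzmb. Each is 300 bases, 250 before and 50 after the transcription start, from RefSeq on GRCm38.p6, written 5′ to 3′ on the minus strand. Capitals mark exact matches on either strand to TGACGTCA (the cyclic AMP response element), TGANTCA (the AP-1 motif) or TGTGGT (the RUNX motif). The windows are chr14:56262285-56262584 for Gzmb, chr14:56234608-56234907 for Gzmc, chr14:56132544-56132843 for Gzmd, chr14:56120576-56120875 for Gzme, chr14:56211358-56211657 for Gzmf and chr14:56159530-56159829 for Gzmg.
Gzmb promoter: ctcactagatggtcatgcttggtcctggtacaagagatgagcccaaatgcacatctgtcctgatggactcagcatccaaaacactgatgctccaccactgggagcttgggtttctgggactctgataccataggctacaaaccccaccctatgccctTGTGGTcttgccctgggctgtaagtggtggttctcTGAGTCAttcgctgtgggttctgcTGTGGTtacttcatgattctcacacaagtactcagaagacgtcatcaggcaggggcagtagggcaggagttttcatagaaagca
Gzmc promoter: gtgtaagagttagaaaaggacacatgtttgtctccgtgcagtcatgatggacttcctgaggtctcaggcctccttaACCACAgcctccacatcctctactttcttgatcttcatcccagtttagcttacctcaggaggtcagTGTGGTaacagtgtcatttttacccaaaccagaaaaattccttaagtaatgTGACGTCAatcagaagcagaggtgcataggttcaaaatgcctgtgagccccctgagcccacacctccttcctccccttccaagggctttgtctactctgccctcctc
Gzmd promoter: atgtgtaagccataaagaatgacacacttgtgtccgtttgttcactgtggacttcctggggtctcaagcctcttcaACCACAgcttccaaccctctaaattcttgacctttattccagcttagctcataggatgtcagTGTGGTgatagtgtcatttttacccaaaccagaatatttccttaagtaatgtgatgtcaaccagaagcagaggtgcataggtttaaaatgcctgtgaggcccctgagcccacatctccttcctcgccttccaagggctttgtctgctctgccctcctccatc
Gzme promoter: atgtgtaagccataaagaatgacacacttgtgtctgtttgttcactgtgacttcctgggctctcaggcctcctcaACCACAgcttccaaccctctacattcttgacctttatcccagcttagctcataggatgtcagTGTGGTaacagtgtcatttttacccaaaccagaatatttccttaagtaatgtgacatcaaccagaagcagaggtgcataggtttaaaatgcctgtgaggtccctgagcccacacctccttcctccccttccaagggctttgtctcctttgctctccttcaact
Gzmf promoter: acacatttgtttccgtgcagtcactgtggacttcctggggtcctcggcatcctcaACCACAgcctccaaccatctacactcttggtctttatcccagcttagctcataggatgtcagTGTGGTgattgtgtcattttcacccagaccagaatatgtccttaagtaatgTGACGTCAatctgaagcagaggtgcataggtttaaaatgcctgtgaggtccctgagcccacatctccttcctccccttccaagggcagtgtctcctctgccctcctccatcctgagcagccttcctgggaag
Gzmg promoter: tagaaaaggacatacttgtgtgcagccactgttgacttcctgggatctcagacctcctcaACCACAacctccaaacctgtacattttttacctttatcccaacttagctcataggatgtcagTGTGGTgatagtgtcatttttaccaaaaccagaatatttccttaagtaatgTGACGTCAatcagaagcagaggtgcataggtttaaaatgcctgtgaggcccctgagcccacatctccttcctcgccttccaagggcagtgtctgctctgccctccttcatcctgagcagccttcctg
TGACGTCA started 57 bases before the transcription start of Gzmc, 82 before that of Gzmf and 77 before that of Gzmg, and this motif was in 1.88% of 27025 promoters of the same length. The Gzmb window held TGANTCA (7.93% of promoters) 58 bases before its RefSeq start and no match to TGACGTCA. Each of the 6 windows held 2 matches to TGTGGT (16.9% of promoters). Gzmd and Gzme held no match to TGACGTCA. Among the windows of Gzmc to Gzmg, identity ran from 73.5% for Gzmc and Gzmf to 93.4% for Gzmd and Gzme, and the Gzmb window was 43.5% to 47.8% identical to the others. The Gzmb window lies wholly upstream of the GENCODE gene position given above, because the RefSeq start is further upstream. The other windows reach into their genes. Positions and identities of the Gzmb window may therefore be out of register with those of the others. These matches are descriptions of the sequence and say nothing about factor binding in these cells.

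Of the markers given for the cell type, Cd8a and Cd8b1 were part of the rule, so their presence in every library was set in advance. Cd8a (chromosome 6, 71373427 to 71379173) was at 603 CPM in M1, 698 CPM in M2, 725 in M5 and 681 in M6, and Cd8b1 at 484, 473, 629 and 528 CPM. Of the T cell receptor genes, Trbc2 was at 1996 CPM, Cd3g at 1742 CPM and Cd3d at 845 CPM over all members. Cd2, an adhesion receptor of T cells, was at 171 CPM in M1, 279 CPM in M2, 330 in M5 and 344 in M6. Its lowest level was that of M1. Foxp3 and Cd4 were at 0 by the rule.

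Of 18 granule genes, 9 had their highest level in M5, 6 in M6, 2 in M2 and 1 in M1, and 3 (Gzmk, Gzmm and Gzmn) were under 50 CPM over all members. M5 was also highest for 9 of 16 T cell receptor and CD8 genes. The same count over all genes was not made, so these counts are no result about the granule genes. Gzmb, the granzyme that starts apoptosis through caspases, was at 1993 CPM in M1, 2561 CPM in M2, 3351 in M5 and 2369 in M6 (2617 over all, exact 95% Poisson interval 2602 to 2633, counting error only). After thinning, 78.5% of members carried a Gzmb UMI, with 79.94%, 80.03%, 80.7% and 71.8% in the 4 libraries, against 4.03% of cells labelled Stroma at a median depth of 40692 UMIs, 26.1% of conventional CD4 T cells, 30.2% of Myeloid-labelled cells, 64.7% of CD8 memory-labelled T cells and 90.0% of NK-labelled cells. Prf1, which encodes perforin, was at 836, 897, 1017 and 655 CPM, and its share was lowest in M6 at 49.8% against 67.3% to 69.2% in the others. Nkg7, a granule membrane protein, was at 2089 CPM and Srgn, the proteoglycan that packs granules, at 1169 CPM over all members. Without the deep cells Gzmb was at 2957 CPM.

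The other granzymes of the cluster varied more between libraries than Gzmb. Gzmf was at 513 CPM in M1, 586 CPM in M2, 1718 in M5 and 772 in M6 (947 over all, 938 to 956, and 614 without M5). Gzmd was at 233, 286, 936 and 653 CPM, Gzme at 185, 232, 644 and 452 CPM and Gzmc at 312, 130, 591 and 543 CPM. M5 was highest for each of these 4 genes. M1 was lowest for Gzmf, Gzmd and Gzme, but without the deep cells M2 was, with Gzmf at 547 CPM in M2 and 699 CPM in M1. Gzmc was lowest in M2, and without the deep cells it was at 215 CPM in M1 and 381 CPM in M6. Gzmg was at 13.0, 66.0, 82.4 and 32.6 CPM, and much of this came from single cells, since 1 cell held 536 of the 653 Gzmg UMIs of M2 and 1 cell 295 of the 1015 of M5. Without the top cell of each library Gzmg was at 10.0 CPM in M1 and 11.9 CPM in M2, and at 58.9 CPM in M5 and 18.5 CPM in M6. Gzma, a granzyme with a different cleavage site that lies outside the cluster, was at 535, 408, 670 and 757 CPM, and fell from 590 to 416 CPM over all members when the deep cells were left out. Its thinned share was 19.2% of members, above the 5.95% of Stroma-labelled cells. It was below the 28.0% of Myeloid-labelled cells, the 28.0% of conventional CD4 T cells, the 30.3% of CD8 memory-labelled T cells and the 98.2% of NK-labelled cells. Among these populations the members thus stood above the Stroma-labelled cells only.

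The UMIs of these granzymes were concentrated in few members, although without thinning 48.3% of members carried a UMI of Gzma, 38.3% of Gzmc and 32.1% of Gzmf. The tenth of members with the most UMIs of a gene held 96.1% of the UMIs of Gzmf, 94.4% of Gzmd, 93.3% of Gzma, 92.5% of Gzme and 92.2% of Gzmc. For Gzmb it held 48.0%, for Prf1 44.0%, for Pdcd1 28.7% and for Cd8a 27.0% (genes of this paragraph other than the granzymes, Prf1 and Pdcd1 were chosen after their values were seen). After thinning, 17.2% of members carried a Gzmf UMI, with 14.3% in M1 and 13.5% in M2, and 24.1% in M5 and 15.6% in M6, and 1.55% of cells labelled Stroma, 6.75% of Myeloid-labelled cells and 9.18% of conventional CD4 T cells did. When the 5 members with most Gzmf UMIs were left out of each library, the pooled level was 675 CPM.

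**Figure D1:**
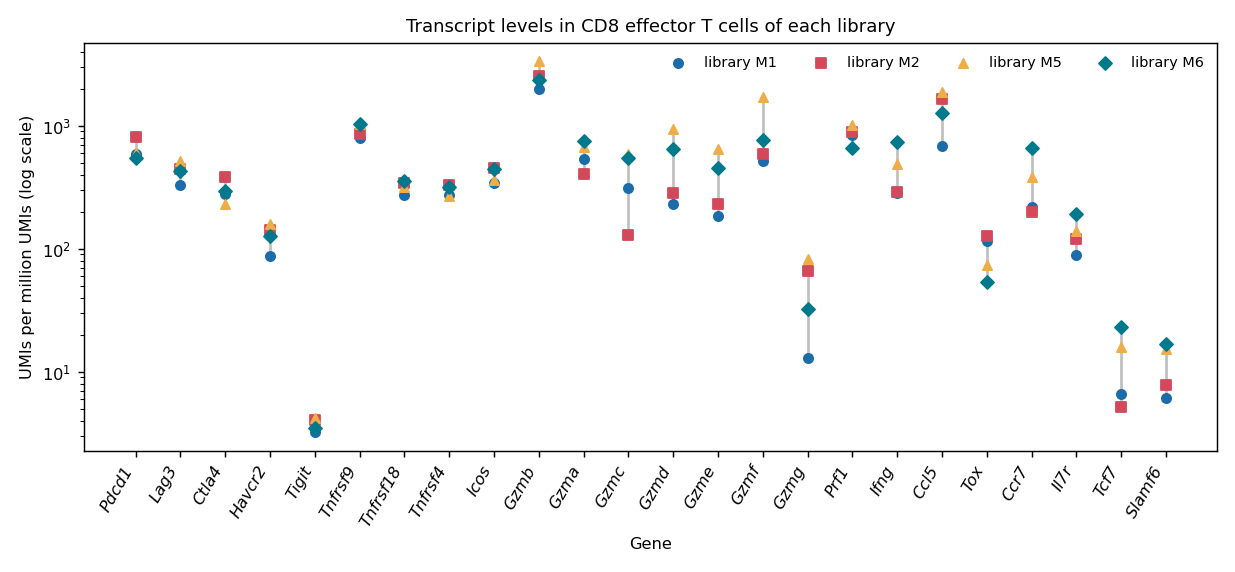
Level of effector, receptor and memory genes in CD8 effector T cells, in CPM on a log axis, with 1 point for each of the libraries M1, M2, M5 and M6. Gzmf ranged from 513 to 1718 CPM and Gzmb from 1993 to 3351 CPM, while Tnfrsf18 stayed between 274 and 354 CPM.

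Several inhibitory receptors that mark repeatedly stimulated T cells were present in all libraries, while 6 of the 14 on the list were under 50 CPM over all members. Pdcd1 (chromosome 1, 94038305 to 94052553), which encodes PD-1, was at 590 CPM in M1, 806 CPM in M2, 606 in M5 and 546 in M6 (638 over all, 631 to 646). Its thinned share was 67.5% (65.8 to 69.2), with 68.1%, 75.6%, 64.8% and 60.2% by library, against 0.313% of Stroma-labelled, 0.972% of NK-labelled and 5.58% of Myeloid-labelled cells and 27.5% of conventional CD4 T cells. M2 was thus the library with the most PD-1 transcript by both measures. Without thinning, 91.6% of members at a median depth of 9854 UMIs carried a Pdcd1 UMI, and 4.16% of Stroma-labelled cells at 40692 UMIs.

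Lag3, an inhibitory receptor for MHC class II, was at 327, 445, 520 and 427 CPM in M1, M2, M5 and M6, and its share was 57.7% over all. Ctla4, which competes with CD28 for its ligands, was at 278, 386, 232 and 294 CPM with a share of 45.4%. Havcr2, which encodes TIM-3 and is taken as a mark of terminal exhaustion, was at 87.9, 142, 158 and 128 CPM. The Havcr2 share was 21.9%, with 17.9%, 24.8%, 24.7% and 18.8% by library, against 0.147% of Stroma-labelled and 10.4% of Myeloid-labelled cells. Lag3 and Havcr2 were both lowest in M1. Tigit was at 3.77 CPM and its share was 0.838%.

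Among costimulatory receptors, Tnfrsf18 (chromosome 4, 156026164 to 156028895), which encodes GITR, was at 274 CPM in M1, 343 CPM in M2, 317 in M5 and 354 in M6 (320 over all, 315 to 326). Its thinned share was 49.9% (48.1 to 51.7), with 49.4%, 53.4%, 47.5% and 49.4% by library, so the libraries lay within a narrow range. In NK-labelled cells the share was 28.0%, in Myeloid-labelled cells 8.76% and in Stroma-labelled cells 0.614%, whereas it was 66.7% of conventional CD4 T cells, and without thinning it was 88.3% of members and 6.90% of Stroma-labelled cells. Tnfrsf9, the activation-induced receptor CD137, was at 796, 854, 1044 and 1035 CPM with a share of 76.7%, against 11.8% of Stroma-labelled, 20.9% of Myeloid-labelled and 62.0% of NK-labelled cells. Icos was at 340, 451, 360 and 448 CPM and Tnfrsf4, which encodes OX40, at 272, 327, 269 and 319 CPM. Without the deep cells Pdcd1 was at 766 CPM and Tnfrsf18 at 379 CPM.

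The 2 targets of the bispecific were often seen in the same cell. After thinning, 35.9% of members carried UMIs of both Pdcd1 and Tnfrsf18, where the product of the single shares was 33.7% (odds ratio 1.51). By library the share with both was 35.4% in M1 and 41.2% in M2, and 32.9% in M5 and 34.0% in M6, with odds ratios of 1.38, 1.21, 1.46 and 2.04. Without thinning, 83.1% of members carried both. For Pdcd1 with Lag3 the share was 41.2% against a product of 38.94%, and for Pdcd1 with Havcr2 it was 15.0% against 14.8%. Tnfrsf18 was seen with Tnfrsf4 in 24.5% of members against a product of 20.5%. Markers of other cell types were at 474 CPM in the members with a Tnfrsf18 UMI and at 694 CPM in those without (504 against 449 CPM in M5, the reverse direction), and their part in these ratios was not tested.

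**Figure D2:**
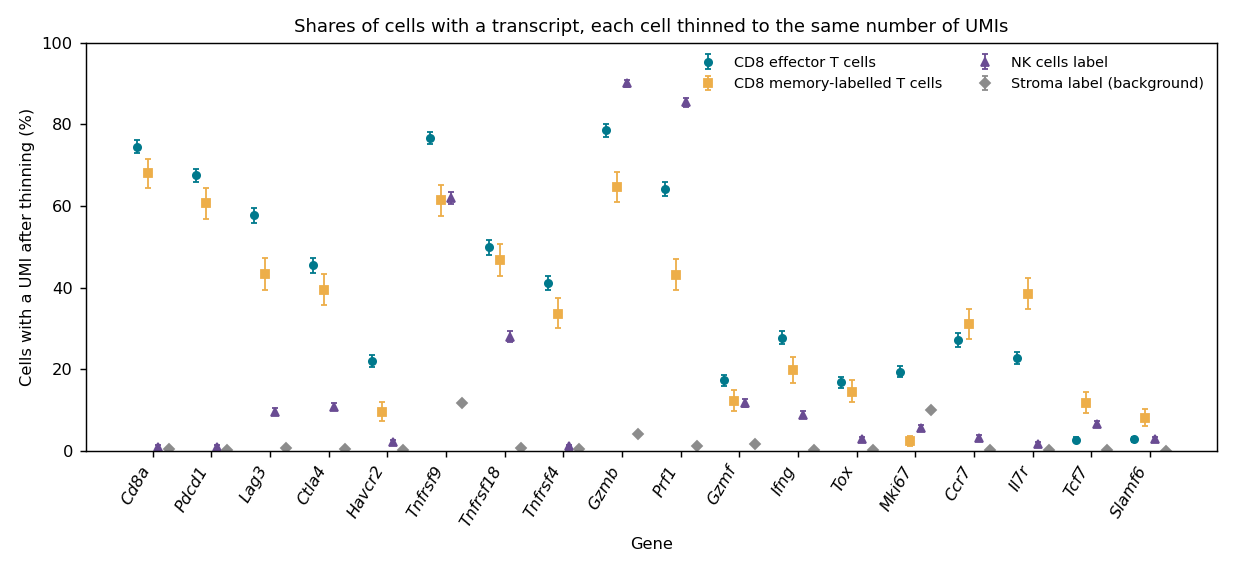
Share of cells with a UMI of each gene after thinning to 2000 UMIs, in percent, for CD8 effector T cells, CD8 memory-labelled T cells, NK-labelled cells and Stroma-labelled cells, with exact 95% binomial intervals that cover counting error only. Pdcd1 was seen in 67.5% of effector and 60.7% of memory-labelled CD8 T cells, and in under 1% of NK-labelled and Stroma-labelled cells.

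Among transcription factors, Stat3, which relays cytokine signals, was at 576 CPM in M1, 646 CPM in M2, 671 in M5 and 683 in M6. Nfkb1, a subunit of NF-kB, was at 289, 273, 323 and 404 CPM, highest in M6. Id2, which favours the effector fate, was at 902 CPM, Nr4a2, an early target of the T cell receptor, at 538 CPM and Hif1a at 514 CPM over all members. Tox, which sustains the exhausted state, was at 117, 128, 74.0 and 53.2 CPM, and its share was 22.3% in M1 and 23.3% in M2, and 12.6% in M5 and 8.05% in M6. M1 and M2 were thus both above M5 and M6 for Tox.

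Of 16 progenitor and memory genes, 12 had their highest level in M6, 2 in M5, 1 in M2 and 1 in M1, and 9 of the 16 were under 50 CPM over all members. M6 was also highest for 10 of 18 cytokine receptors and 12 of 26 interferon-stimulated genes. As no such count was made over all genes, the 12 of 16 is no result about the progenitor and memory genes. Tcf7 was at 6.62 CPM in M1, 5.15 CPM in M2, 15.9 in M5 and 22.9 in M6, and Slamf6 at 6.14, 7.78, 15.3 and 16.9 CPM. The lymph node homing receptor Ccr7 was at 218, 199, 381 and 659 CPM, and Il7r, the receptor for interleukin-7, at 89.5, 120, 140 and 193 CPM. For these 4 genes each of M1 and M2 lay below each of M5 and M6, whereas Klf2, a transcription factor of resting T cells, was at 128, 180.5, 134 and 145 CPM and so was highest in M2 (72.4 CPM in M1 and 149 CPM in M2 without the deep cells). The Slamf6 share was 2.82% (2.25 to 3.48), with 1.43%, 2.15%, 4.24% and 3.22% by library, and 10.1% without thinning. It was 0.0256% of Stroma-labelled cells but 2.92% of NK-labelled and 3.49% of Myeloid-labelled cells (17.7% without thinning), 7.95% of CD8 memory-labelled and 19.3% of conventional CD4 T cells. Pooled over the libraries, the Slamf6 share of the members thus stood above that of the Stroma-labelled cells only among these populations. The Tcf7 share was 2.68%. The Ccr7 share was 27.1%, with 19.9% in M1 and 17.4% in M2, and 30.2% in M5 and 43.3% in M6. It was 3.20% of NK-labelled, 6.05% of Myeloid-labelled and 0.237% of Stroma-labelled cells. Pooled over the libraries it was 31.0% of CD8 memory-labelled and 31.9% of conventional CD4 T cells, above the members. By library the memory-labelled cells were at 27.3%, 28.0%, 29.8% and 35.7%, above the members in M1 and M2 only. The conventional CD4 T cells were at 13.6%, 17.4%, 36.8% and 36.2%, clearly above the members in M5 only. The libraries also differed in the share of cells under the memory label, as given below, and whether the placing of cells near the border of the 2 labels moved with these levels was not tested.

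Among NK type receptors, Klrd1, which pairs with NKG2 chains, was at 667, 774, 834 and 765 CPM, Klrk1, which encodes NKG2D, at 350, 431, 422 and 425 CPM and Klre1 at 137, 173, 136 and 123 CPM. The residency genes Cxcr6 and Rgs1 were at 589 and 381 CPM over all members, whereas 3 of the 8 genes of that list were under 50 CPM. Without the deep cells the residency genes Itgae and Zfp683 were at 1.26 and 0.366 CPM. Ly6c2, a surface protein of effector and memory CD8 T cells, was at 170, 350, 576 and 366 CPM, lowest in M1.

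Of the cytokines, Ifng, which encodes interferon-gamma, was at 284 CPM in M1, 291 CPM in M2, 485 in M5 and 740 in M6, with shares of 25.4%, 26.9%, 27.3% and 32.2%. A single M5 cell of 71849 UMIs carried 1683 of the 17934 Ifng UMIs and 621 Il2 UMIs, which were 90.5% of all Il2 UMIs of the members, together with 9 Cd8a UMIs and 1 Pdcd1 UMI (chosen after its values were seen). Il2 was accordingly at 52.1 CPM in M5 and between 0.877 and 2.02 CPM in the other libraries. The Ifng level of M5 was 350 CPM when the deep cells were left out, below M1 (373 CPM) and above M2 (318 CPM). The order of M1 and M5 was thus reversed, and M6 stayed highest at 841 CPM. Spp1, which encodes osteopontin, was at 2443, 1986, 2879 and 2222 CPM, with 5448 CPM in Stroma-labelled cells and with 1765 CPM in M1 and 1504 CPM in M2 without the deep cells. Ltb was at 496 CPM and Tgfb1 at 344 CPM over all members. In M6, 1 cell held 1397 of 6170 Ifng UMIs, and without it the level was 573 CPM. M6 was the library with the most Ifng transcript with and without the top cell of each library, and without it M5 was at 350 CPM and M1 and M2 at 264 CPM each.

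Chemokines of activated CD8 T cells differed widely between libraries. Ccl5 was at 687 CPM in M1, 1665 CPM in M2, 1869 in M5 and 1277 in M6. Ccl4 was at 383, 587, 636 and 1008 CPM, Ccl3 at 213, 320, 401 and 435 CPM and Xcl1, which attracts cross-presenting dendritic cells, at 133, 123, 211 and 332 CPM. M1 was lowest for Ccl5, Ccl4 and Ccl3 (for Ccl3 M2 was without the deep cells, at 266 against 286 CPM), and M6 was highest for Ccl4, Ccl3 and Xcl1. The tenth of members with the most UMIs held 94.6% of those of Ccl3, 86.8% of Ccl4 and 78.1% of Ifng. Of cytokine receptors, Il2rb was at 720 CPM, Ifngr1 at 523 CPM and Ifnar1 and Il2rg both at 169 CPM over all members.

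Cycling genes were seen in a part of the members in every library. Mki67, the proliferation marker Ki-67, had a thinned share of 19.4% (18.01 to 20.9), with 21.3% in M1 and 23.5% in M2, and 15.9% in M5 and 16.9% in M6, and 38.4% without thinning. In Stroma-labelled cells the share was 9.99%, and in NK-labelled cells 5.50%. Mki67 and Top2a, the DNA topoisomerase of dividing cells, were seen together in 10.9% of members, against a product of single shares of 4.58% (odds ratio 6.90). Of the other lists, Hmgb2 was at 1180 CPM, Stmn1 at 437 CPM, the interferon-stimulated gene Ifi27l2a at 942 CPM and the glycolysis genes Gapdh and Ldha at 3417 and 1225 CPM over all members.

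The cells most like the CD8 effector T cells were those that the authors labelled T cell MEM and that met the same Cd8, Cd4 and Foxp3 rule, 675 cells with a median depth of 6877 UMIs. They numbered 113 in M1 and 127 in M2, and 208 in M5 and 227 in M6, which was 1.10% of the cells of M1, 1.42% of M2, 2.91% of M5 and 3.0% of M6. These are again shares of all cells, with the Stroma-labelled cells included. A gene was called when its log2 ratio of CPM, with 1 CPM added, passed 1 over all cells and had the same sign in each of the 4 libraries, among genes of at least 20 CPM in either population. Of 5968 genes, 261 (4.37%) were called higher in effector cells and 79 (1.32%) lower, and without the deep cells 149 were higher and 78 lower. The authors set the labels from the whole profile of each cell, so these counts are a description and no test.

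Proliferation genes were higher in the effector cells. Of 28 genes of the list tested, 25 were called higher and 0 lower, with a median log2 ratio of 2.73 against -0.01 over all genes tested. Mki67 was at 201, 247, 178 and 188 CPM in M1, M2, M5 and M6 of the effector cells and at 15.1, 8.59, 12.4 and 15.2 CPM in the memory-labelled cells (log2 ratio 3.84), without overlap. Top2a was at 270 against 21.3 CPM and Stmn1, a microtubule regulator, at 437 against 49.2 CPM. The genes with the largest ratios were also genes of division, Ccna2 (log2 ratio 4.91), Hist1h1b (4.67), Knl1 (4.47), Tpx2 (4.37) and Bub1 (4.29). When the deep cells were left out, 25 of 28 were still called higher, and when the members with a Mki67 UMI after thinning were left out, 21 of 26 were, with a median of 2.19.

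Genes of progenitor and memory cells were lower in the effector cells, 6 of 14 tested, with a list median of -0.91. Tcf7 was at 6.62, 5.15, 15.9 and 22.9 CPM in the effector cells of M1, M2, M5 and M6 and at 51.7, 60.2, 44.6 and 63.4 CPM in the memory-labelled cells (log2 ratio -2.05). Slamf6 was at 11.5 against 40.2 CPM (-1.72), S1pr1, the receptor for leaving tissue, at 3.70 against 32.7 CPM (-2.84), Lef1 at 16.0 against 42.1 CPM (-1.34) and Il7r at 133 against 291 CPM (-1.12). Ccr7 was not called and was at 353 against 469 CPM. Its ratio was negative in M1, M2 and M5 and positive in M6.

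Single genes of effector function differed, where 4.37% of all genes tested were called higher. For cytokine, chemokine and transcription factor genes, calls are given by gene and not as a count over the list. Of 16 granule genes tested, 1 was called higher, Gzmf at 947 against 360 CPM (log2 ratio 1.39, with 0.40 in M1 and 1.35 in M2, and 1.76 in M5 and 1.58 in M6). This level leaned on few cells. Without the 5 top members of each library, Gzmf was at 312, 390, 1389 and 419 CPM in M1, M2, M5 and M6. Whether the call held without them was not tested. The thinned Gzmf share was 17.2% of members and 12.2% of memory-labelled cells. Ifng was at 284, 291, 485 and 740 CPM in the effector cells and at 89.6, 155, 134 and 151 CPM in the memory-labelled cells (1.68), without overlap. The chemokines Ccl1 (1.70), Ccl4 (1.10) and Ccl3 (1.08) and the transcription factors Irf4 (1.07), which scales with receptor signal strength, and Egr1 (1.10) were called higher. Egr1 was at 223 CPM over all members, at 102 CPM without the deep cells and at 1160 CPM in Stroma-labelled cells, and without them neither Egr1 nor Ccl3 was called.

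The chemokine receptors Cxcr3 (-1.71), Cxcr4 (-1.57) and Ccr2 (-1.34), the integrin chain Itgb7 (-1.46), Cd7 (-1.74) and the interferon-stimulated genes Ifit3 (-1.13) and Rsad2 (-1.10) were called lower. The lowest ratios included the mast cell genes Tpsb2 (-3.38, 1.69 against 27.0 CPM), Cma1 (-3.27) and Tpsab1 (-2.69) and the myeloid genes Arg1 (-1.97) and Il1a (-1.96), which in Myeloid-labelled cells were at 329, 881, 479, 549 and 356 CPM. Their part in the other ratios was not tested.

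The receptors that the bispecific binds were not among the called genes. Pdcd1 was at 638 CPM in the effector and 659 CPM in the memory-labelled cells (log2 ratio -0.05), and Tnfrsf18 at 320 and 385 CPM (-0.26, between -0.67 in M1 and 0.00 in M6). The thinned shares were 67.5% against 60.7% (56.8 to 64.5) for Pdcd1 and 49.9% against 46.8% (42.9 to 50.7) for Tnfrsf18. Of 9 inhibitory receptors, 8 costimulatory receptors and 16 T cell receptor and CD8 genes tested, 0 were called in either direction. Over all genes tested, 4.37% were called higher and 1.32% lower, so few calls would fall on lists of this size. The count of 0 is thus no result about these lists. Havcr2 was at 130 against 71.3 CPM (0.86, below the threshold) and was called without the deep cells. Prf1 was at 868 against 565 CPM (0.62) and Gzmb at 2617 against 2081 CPM (0.33), both below the threshold.

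**Figure D3:**
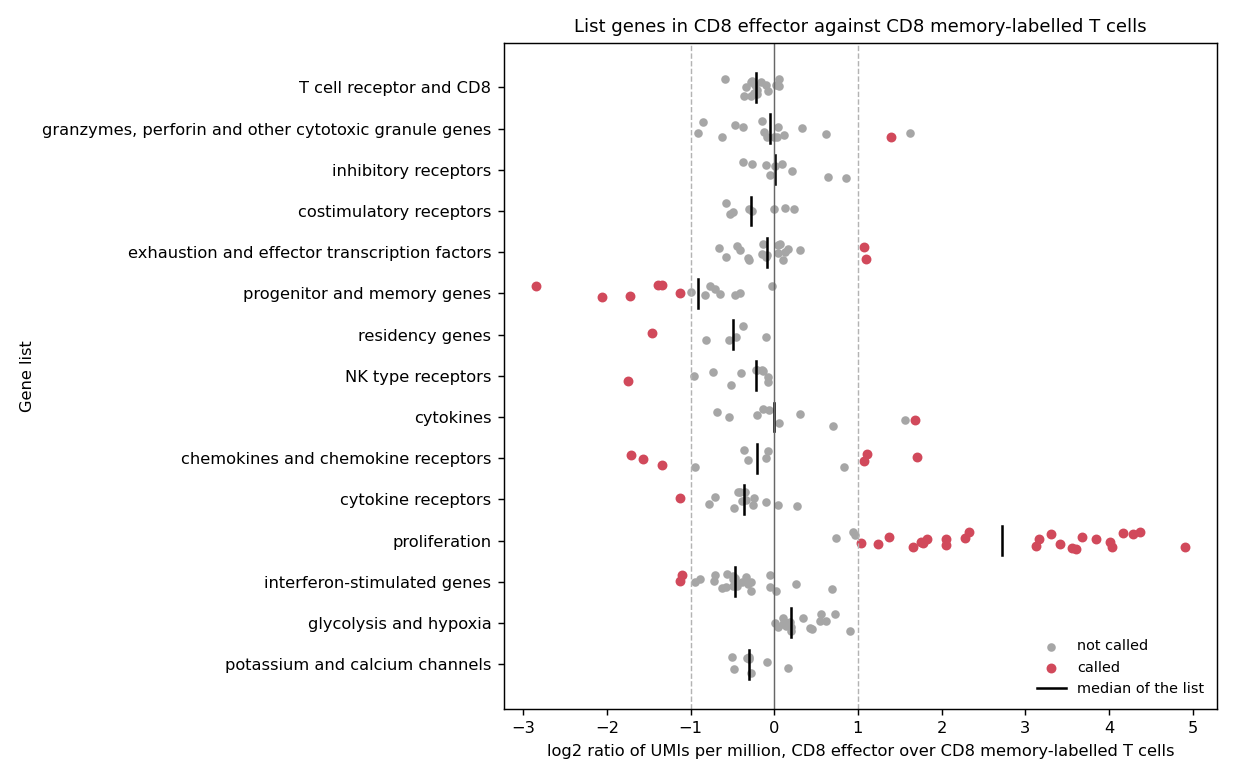
Log2 ratio of CPM in CD8 effector over CD8 memory-labelled T cells for the genes of each list, with 1 point per gene, called genes in red, a black bar at the list median and dashed lines at the threshold of 1 in either direction. The proliferation list lies at a median of 2.73 and the progenitor and memory list at -0.91, and the other lists lie around 0.

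Set beside NK-labelled cells, the other killer cells of the tumors, 302 of 5960 genes (5.07%) were called higher in the CD8 effector T cells and 217 (3.64%) lower. Of 16 granule genes tested, 7 were lower, with Gzma at 590 CPM against 15149 CPM (log2 ratio -4.68) and Prf1 and the granzymes Gzmc, Gzmd, Gzme, Gzmf and Gzmg among them, and 0 were higher. Gzmf was lower by level only, since 17.2% of members carried a Gzmf UMI after thinning against 11.6% of NK-labelled cells, and the share of members was the larger in each of the 4 libraries. Of 10 inhibitory receptors 5 were higher, Pdcd1 at 638 against 10.3 CPM (5.82), Ctla4, Cd160, Lag3 and Havcr2, and 2 were lower, Cd244 and Klrg1. Of 8 costimulatory receptors 6 were higher, among them Tnfrsf18 at 320 against 148 CPM. Set beside 209 conventional CD4 T cells, 400 of 6076 genes (6.58%) were higher and 291 (4.79%) lower, and Tnfrsf18 was among the lower genes, at 320 against 660 CPM.

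To describe how the CD8 effector T cells differed among themselves, they were split by the presence of a UMI of 1 gene after thinning, and all UMIs of both sides were compared with the same call rule, leaving out the splitting gene. A member without a UMI of the gene after thinning can still carry it in its full counts. The splits by Ccr7 and their values were chosen after the data were seen. The sides of a split can also differ in depth and in transcripts of other cell types, and both are given for each split.

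The pooled levels of the other granzymes of the cluster were higher in members with a Gzmf UMI, although 187 of these 514 members carried a Gzmc UMI after thinning and 233 members in all had a Gzmg UMI without it. Of 5768 genes, 10 (0.173%) were higher in the 514 positive than in the 2468 negative members and 18 (0.312%) lower. Gzmd was at 986 CPM in M1, 1468 CPM in M2, 2426 in M5 and 2821 in M6 of the positive members, and at 108, 89.6, 356 and 289 CPM in the negative ones (log2 ratio 3.28), without overlap. The ratio was 5.26 for Gzmg, 3.10 for Gzme, 2.64 for Gzmc and 1.25 for Gzmb, which was at 4960 against 2084 CPM. Serpinb9b, a granzyme inhibitor of the serpin family (1.51), Fcrl6 (1.57), Ifitm1 (1.35) and Il1r2 (1.30), the decoy receptor for interleukin-1, were higher too. Lower were Xcl1 (-1.72), Ccr7, Cxcr4 (-1.41), Tnfsf8 (-1.32), Csf2 (-1.26) and Rsad2 (-1.48), and the chemokines Ccl12 (-2.11), Ccl6 (-1.65) and Ccl2 (-1.45), which in Myeloid-labelled cells were at 456, 791 and 1482 CPM.

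Without the deep cells 14 genes were higher and 9 lower. The median depth of Gzmf-positive members was 11705 UMIs against 9736 UMIs, and the summed markers of other cell types were at 469 against 629 CPM (996 against 793 CPM in M1, the reverse direction). The transcripts of the cluster are alike in part, since 21.9% of the 50-base windows of Gzmd, 20.6% of Gzme, 19.8% of Gzmg, 7.36% of Gzmf and 4.14% of Gzmc occur in another granzyme and 0% of those of Gzmb do. How far reads of 1 gene were counted for another was not tested. In thinned counts, Gzmd and Gzme were seen together in 10.4% of members against a product of 2.30% (odds ratio 36.3), and Gzmc and Gzmf in 6.27% against 2.66% (4.58). Gzmf and Mki67 were seen together in 3.15% against 3.35% (0.92).

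Members with a Ccr7 UMI carried little Gzmf and more of several memory genes. Of 5854 genes, 72 (1.23%) were higher in the 809 positive than in the 2173 negative members and 91 (1.55%) lower. Gzmf was at 59.5 CPM in M1, 38.8 CPM in M2, 468 in M5 and 120 in M6 of the Ccr7-positive members and at 606, 683, 2243 and 1172 CPM in the negative ones (log2 ratio -2.40). Every Ccr7-positive value lay below every Ccr7-negative one. Gzmf and Ccr7 were seen together in 2.62% of members against a product of 4.68%, with odds ratios of 0.40, 0.25, 0.41 and 0.40 in M1, M2, M5 and M6.

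Higher in Ccr7-positive members were Tcf7, at 30.4 against 6.48 CPM (2.07), Dapl1 (3.13), the TNF family ligands Tnfsf8 (2.56), Tnfsf4 (2.36) and Tnfsf11 (2.19), the granzyme Gzmm (2.19), the chemokines Ccl1 (2.17) and Xcl1, and Slamf6, Bach2, Il7r and Il2ra. Lower beside Gzmf were Gzmg (-2.19), Gzmk, Cd244, Entpd1 and Itga1, and also Fst, Prkg2, Esm1, Nppb and Timp1, which stood higher in Stroma-labelled cells than in the members (322 against 53.8 CPM for Esm1 and 685 against 97.1 CPM for Timp1). The summed markers of other cell types were at 565 CPM in the positive and 611 CPM in the negative members (829 against 821 CPM in M1 and 509 against 457 CPM in M5, the reverse direction), and the median depths were 9655 and 10140 UMIs. Without the deep cells 63 genes were higher, 56 of them among the 72 above. Another 37 were lower, but only 17 of these were among the 91 above, so most of the lower calls did not hold. Gzmf, Tcf7 and Slamf6 were still called. The Ccr7 share with Slamf6 was 1.51% against a product of 0.764% (odds ratio 3.22), with Il7r 9.36% against 6.17% (2.34) and with Mki67 3.72% against 5.27% (0.58).

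**Figure D4:**
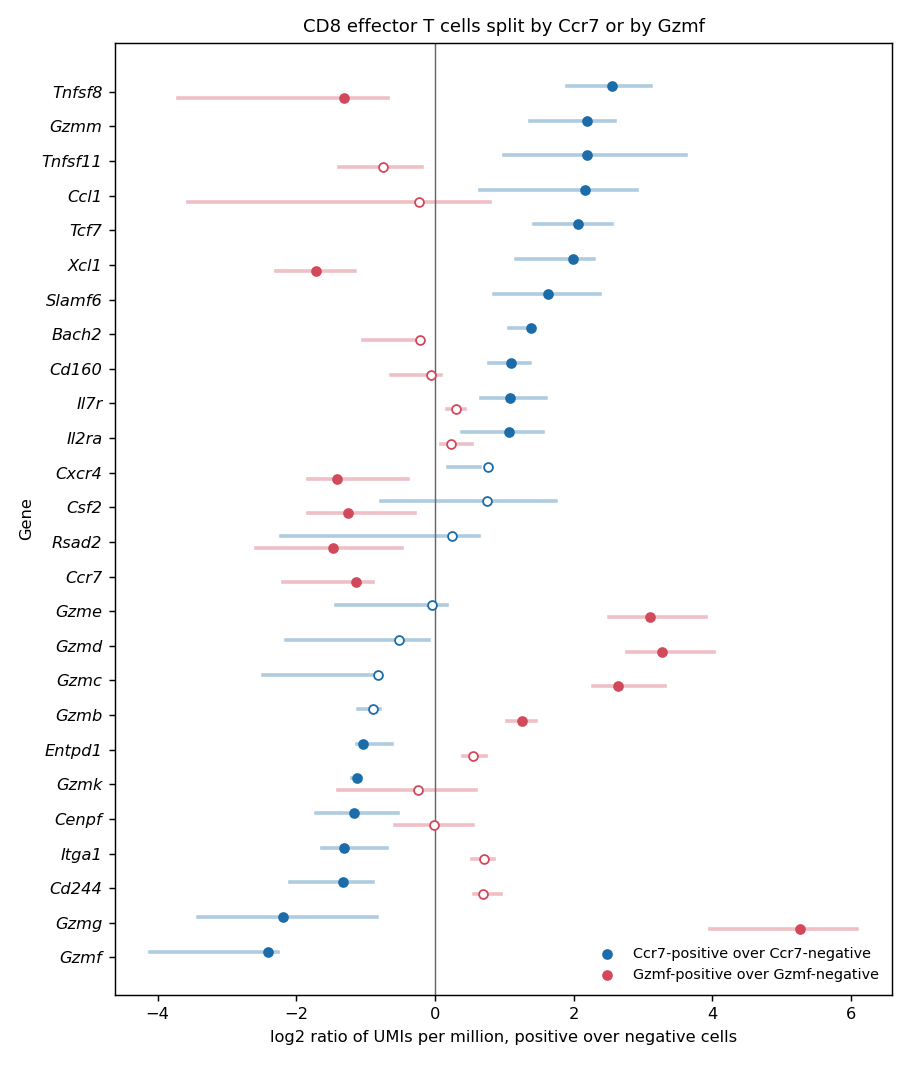
Log2 ratio of CPM between members with and without a Gzmf UMI and between members with and without a Ccr7 UMI, for named genes, with filled points for called genes, open points for genes not called and lines from the lowest to the highest of the 4 libraries. Gzmd, Gzme, Gzmc and Gzmg lie to the right of 0 in the Gzmf split, and Gzmf lies at -2.40 in the Ccr7 split.

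The 84 members with a Slamf6 UMI were 10 in M1 and 17 in M2, and 37 in M5 and 20 in M6. Of 6123 genes, 54 (0.882%) were higher and 82 (1.34%) lower than in the 2898 other members, and 95 were higher without M1 and 109 without M5. Tcf7 was at 45.9, 19.2, 63.5 and 69.6 CPM by library against 6.38, 4.80, 14.1 and 21.6 CPM (log2 ratio 2.08), and Gzmf at 15.3, 19.2, 150 and 65.3 CPM against 516, 604, 1773 and 786 CPM (-3.51). Gzmf did not overlap between the sides, and Tcf7 in the positive members of M2 lay below the negative members of M6. Igfbp2 (3.66), Tnfsf8 (2.26), Cxcr3 (1.86), Dapl1 (1.75), Ccr7, Cxcr4 and Tnfsf11 were higher as well, and Gzmd, Havcr2, Spp1 and the cell cycle kinase Cdk1 were lower. Slamf6 and Havcr2 UMIs were seen together in 7 members, 0.235% against a product of 0.617%. The summed markers of other cell types were at 1619 CPM in the positive and 575 CPM in the negative members, and were not higher in the positive members of M1 (153 against 826 CPM). Their median depth was 7239 UMIs against 10107 UMIs.

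The 653 members with a Havcr2 UMI had higher levels of some chemokine and granzyme genes than the 2329 without, and no count over these lists is given. Of 5813 genes, 18 (0.310%) were higher and 119 (2.05%) lower. Ccl3 was at 938, 1046, 811 and 967 CPM in M1, M2, M5 and M6 against 89.8, 127, 285 and 329 CPM (log2 ratio 2.17) and Gzmb at 4107, 4642, 5999 and 3800 CPM against 1635, 1992, 2603 and 2078 CPM (1.22), both without overlap. Gzmd (1.45), Ccl4 (1.31), Gzme (1.29), Ccl1 (1.27) and Serpinb9b (1.16) were higher too, as were Prf1, Gzmf, Ifng and Ccl5. The lower genes included Rarres1 (-2.30), Hmga2 (-2.11), Vcam1 (-2.07) and Cald1 (-2.05), which in Stroma-labelled cells were at 150, 336, 336 and 581 CPM against 23.9, 53.0, 49.9 and 82.0 CPM in the members. The summed markers of other cell types were at 326 CPM in the positive and 663 CPM in the negative members, and the median depths were 9880 and 10076 UMIs. Without the deep cells, 8 genes were higher, among them Ccl3, Gzmb, Gzmd and Gzmf, and 7 were lower.

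Members with a Mki67 UMI differed from the others in cell cycle genes. Of 5914 genes, 187 (3.16%) were higher in the 579 positive than in the 2403 negative members, led by Cenpf (log2 ratio 2.32), Aspm (2.31) and Kif4 (2.20), and 3 (0.0507%) were lower, Krt14, Tcp11l2 and Kdm5b. Of 28 proliferation genes, 19 were higher, with a list median of 1.62, and 0 genes of any other list were called, whereas without the deep cells Gzmg and Ccl5 were called lower and 20 proliferation genes higher. The median depth was 15380 against 9378 UMIs, and the summed markers of other cell types were at 680 against 572 CPM (733 against 857 CPM in M1, the reverse direction). Mki67 was seen together with Pdcd1 in 12.9% of members against a product of 13.1%.

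The split by Tnfrsf18 gave 0 of 5821 genes (0%) called higher in the 1488 positive than in the 1494 negative members, and 1 gene when either M1 or M6 was left out. No replicated test stands behind this count. Without thinning, 88.3% of members carried a Tnfrsf18 UMI, so most of the negative members held the transcript in their full counts. The split therefore cannot show how members with and without Tnfrsf18 differ. Lower were 123 genes (2.11%), led by Nppb (-2.38), and without the deep cells 0 genes were lower. The median depths were 9340 and 10761 UMIs, and the levels of markers of other cell types on each side are given above.

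Across the libraries, 2918 genes had at least 50 CPM in the members, and the ratio of the highest to the lowest library had a median of 1.20 and was above 2 for 92 genes (3.15%). Of the 166 genes of the lists at this level, 27 were above 2. The widest ratios were those of Dcn (15.7), a collagen-binding proteoglycan of stroma, at 67.1, 53.6, 6.01 and 94.1 CPM, and S100a9 (15.2), a neutrophil gene, at 10.3, 34.1, 37.2 and 157 CPM. Dcn was at 468 CPM in Stroma-labelled and S100a9 at 919 CPM in Myeloid-labelled cells. Next were Gzmg (6.36, a ratio that rests on the single cells given above), Emb (6.24) at 44.4, 38.8, 130 and 242 CPM, Ccl1 (6.11) at 16.3, 44.1, 75.1 and 99.4 CPM, Serpine2 (5.92) at 34.97, 92.0, 207 and 197 CPM, Rora (5.24), an orphan nuclear receptor, at 52.2, 70.5, 196 and 273 CPM and Gzmc (4.56). Emb, Ccl1, Serpine2 and Rora were each lower in M1 and M2 than in M5 and M6. The last of the 10 widest ratios were those of Baiap2l1 (4.55) at 156, 93.3, 34.3 and 83.9 CPM and Tmem176b (4.51) at 99.6, 45.7, 22.1 and 66.2 CPM. Both were highest in M1 and lowest in M5, and Baiap2l1 was higher in M1 and M2 than in M5 and M6.

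The T cell receptor segments that the 3′ reads caught also differed by library (they were chosen after their values were seen). A UMI of a Trbv segment was found in 480 members (15.7%) and of a Trav segment in 637 (20.9%), against 0.341% and 1.07% of NK-labelled cells. Trav16n (chr14:53351028-53351621, plus strand) was found in 98 of 705 members of M1, which was 55.4% of the M1 members with any Trav UMI, and in 1 member of M2, 20 of M5 and 1 of M6. The segment most like it, Trav16d-dv11 (chr14:53047287-53047821, plus strand), was found in 43, 3, 6 and 2 members. Over 353 bases of spliced transcript (GENCODE M21, GRCm38) they differ at 20 positions (94.3% identity). The first 200 bases of each, 5′ to 3′, are printed because their likeness bears on how far reads can be placed, with capitals at the positions that differ.
Trav16n: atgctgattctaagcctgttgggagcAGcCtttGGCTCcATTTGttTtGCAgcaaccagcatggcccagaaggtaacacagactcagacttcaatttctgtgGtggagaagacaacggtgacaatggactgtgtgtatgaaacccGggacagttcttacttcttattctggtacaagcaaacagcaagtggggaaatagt
Trav16d-dv11: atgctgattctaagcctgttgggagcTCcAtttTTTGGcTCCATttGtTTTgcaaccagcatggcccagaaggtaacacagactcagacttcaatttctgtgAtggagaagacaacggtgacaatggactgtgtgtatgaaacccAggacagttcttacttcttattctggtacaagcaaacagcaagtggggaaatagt
Of the 50-base windows of Trav16n, 50.5% occur in another Trav segment, so its count and that of Trav16d-dv11 are uncertain against each other. The CD8 memory-labelled cells of M1 showed Trav16n as well, in 11 of 113 cells.

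Other segments were spread differently. Trav3-3 was found in 13 members of M1, 29 of M2, 91 of M5 and 24 of M6 and Trav21-dv12 in 4, 6, 47 and 35. Of the 50-base windows of Trav3-3, 40% occur in another Trav segment, so its count is uncertain too. For Trav21-dv12 the share is 0%. Trbv19 was found in 2, 59, 15 and 15 members, Trbv13-1 in 10, 1, 45 and 9, Trbv15 in 0, 0, 3 and 28 and Trbv31 in 17, 0, 5 and 5. Trbv12-2, the Trbv segment found in most members, was in 108 of the 480 and occurred in every library, in 18, 48, 17 and 25 members. The leading Trbv segment was Trbv12-2 in M1, Trbv19 in M2, Trbv13-1 in M5 and Trbv15 in M6, and the leading Trav segment was Trav16n in M1, Trav3-3 in both M2 and M5 and Trav21-dv12 in M6. No segment says whether cells share a whole receptor. The share of Trbc1 among Trbc1 and Trbc2 UMIs was 39.4% in M1 and 15.3% in M2, and 33.3% in M5 and 22.5% in M6, and 37.4%, 20.2%, 39.0% and 26.3% in the memory-labelled cells of the same libraries, although 40.5% and 44.0% of the 50-base windows of the 2 genes are shared. In each of 4 segments compared, Trav16n in M1, Trbv19 in M2, Trav3-3 in M5 and Trbv15 in M6, carriers were deeper than the other members of the library, with a median of 13203 against 9868 UMIs for Trav16n in M1. Their levels followed no common direction: Ccr7 was at 115 against 240 CPM in Trav16n carriers of M1 and at 691 against 658 CPM in Trbv15 carriers of M6, and Pdcd1 was at 633 against 581 CPM in the former and at 656 against 824 CPM in Trbv19 carriers of M2.

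**Figure D5:**
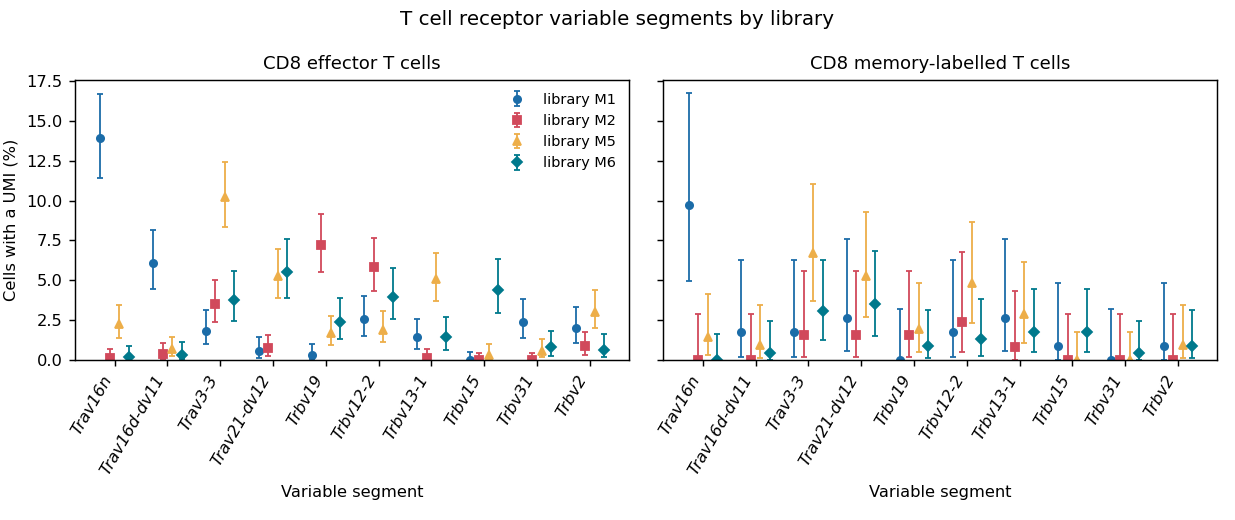
Share of cells with a UMI of each T cell receptor V segment, in percent without thinning, by library, in CD8 effector T cells on the left and CD8 memory-labelled T cells on the right, with exact 95% binomial intervals that cover counting error only. Trav16n stands out in M1, where 98 of 705 effector cells carried it, and Trav3-3 in M5, where 91 of 889 did.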

How the data were processed

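Single-cell mRNA-seq libraries of CD45-enriched CT26 tumor cells were analyzed. Per the submitters' processing notes the authors used Cell Ranger 3.0.2 with mm10 (GRCm38), and the paper gives a minimum of 500 UMIs per cell. The deposited table holds UMI counts without normalization, and a companion table gives each cell's total count, library name and authors' cell type label. The labels came from correlation with ImmGen profiles. The counts of each of the 33961 cells were checked and summed to the deposited total. The table's 4 library names matched no sample label, so no library was placed in a treatment group and the lack of groups left no comparison with replicates. The count test planned for such tables was not used, and no p-value is given. Members and gene lists were chosen with earlier results of these data known.

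Counts were summed per library and scaled to 1000000 (CPM) in pandas 2.3.3 and numpy 2.4.6 under Python 3.11.15, with intervals from scipy 1.17.1. Log2 ratios used a pseudocount of 1 CPM and genes of at least 20 CPM in either population. For shares, cells were thinned at random to 2000 UMIs each, drawn without replacement (random seed 7). Intervals are exact binomial or Poisson at 95% and cover counting error only. The call rule was tested on simulated data with known changes. In these data libraries and cells varied by counting error only. The simulation therefore says nothing about genes whose UMIs sit in few cells or differ between libraries. Genes were named by rule: the 4 highest of each list, the genes that the paper names for CD8 T cells of this experiment with Tnfrsf18, the 10 largest ratios per direction of each comparison and of the library spread, and called list genes. No doublet caller was run and no correction for free RNA was made. The 358 members over 10% mitochondrial UMIs stayed in and were left out in an alternative. Promoters are from RefSeq, gene positions and V segments from GENCODE M21. Figures were drawn with matplotlib 3.10.9. The results of some list genes are not reported here.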

Additional observations from a re-analysis of the deposited data

How the results depend on the processing

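No paired analysis was possible because the libraries of the table carry no replicate number or group. Of 127 values recomputed under another setting, 72 stayed within the interval of the reported value or within 1.5 times the reported count, and 55 moved. The Ccr7 split and share, the gene counts without cells over 30000 UMIs or without Mki67-positive members, and the setting without the top Gzmf cells were chosen after seeing the data. Depth limits the shares. In the order Pdcd1, Tnfrsf18, Mki67, Slamf6, Havcr2, Ccr7 and Pdcd1 with Tnfrsf18, they were 47.2%, 30.5%, 12.2%, 1.44%, 13.3%, 20.2% and 16.3% at 1000 UMIs, 82.6%, 68.9%, 26.3%, 4.44%, 33.2%, 34.3% and 59.3% at 4000 UMIs, and 91.6%, 88.3%, 38.4%, 10.1%, 53.7%, 39.7% and 83.1% without thinning. Without cells over 30000 UMIs the share of all cells was 12.6%, the Pdcd1 share 69.4%, and the levels 2957 CPM for Gzmb, 997 for Gzmf, 766 for Pdcd1 and 379 for Tnfrsf18. Without the 5% of members highest in markers of other types, the share was 8.52% and the levels 2742, 1028, 672 and 335 CPM. Without members over 10% mitochondrial UMIs the levels were 2588, 958, 618 and 314 CPM. With 1 Cd4 UMI allowed, Gzmb was at 2588, Gzmf at 937 and Pdcd1 at 629 CPM, and with at least 2 Cd8 UMIs required Gzmb was at 2634 CPM. Gzmf was at 675 CPM without its 5 top cells per library.

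Counts of called genes moved as follows. At a minimum of 5 CPM, 623 genes were higher and 133 lower than in memory-labelled cells, 86 were higher in Slamf6-positive and 16 in Gzmf-positive members, and 111 were higher and 251 lower in Ccr7-positive members. With a pseudocount of 10 CPM, 31 were lower than in memory-labelled cells, 26 higher in Slamf6-positive members, and 40 higher and 47 lower in Ccr7-positive members. Without the 5% of members highest in markers of other types, 122 were lower than in memory-labelled cells. Without cells over 30000 UMIs, 149 were higher than in memory-labelled cells, 8 higher in Havcr2-positive and 37 lower in Ccr7-positive members. Of these 37, only 17 were among the 91 lower genes of the main setting.

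With each library left out in turn, the share of all cells was 8.06% to 9.90%, and the shares with a UMI were 64.5% to 69.4% for Pdcd1, 48.7% to 50.9% for Tnfrsf18, 17.9% to 20.9% for Mki67, 2.23% to 3.24% for Slamf6, 20.8% to 23.1% for Havcr2, 22.9% to 30.6% for Ccr7 and 34.0% to 37.2% for Pdcd1 with Tnfrsf18. The levels were 2300.3 to 2827 CPM for Gzmb, 614 (without M5) to 1093 for Gzmf, 585 to 662 for Pdcd1 and 312 to 336 for Tnfrsf18. The genes higher than in memory-labelled cells numbered 231 to 290 and the lower ones 72 to 93, and those higher on the positive side of a split 186 to 205 for Mki67, 65 to 109 for Slamf6 (95 without M1, 109 without M5), 14 to 21 for Havcr2, 0 to 1 for Tnfrsf18, 12 to 15 for Gzmf and 63 to 73 for Ccr7, where 79 to 112 were lower.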
